A study of Mus musculus with 14 samples.

Results

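Transcripts of the interleukin-1 (IL-1), interleukin-18 (IL-18) and interleukin-33 (IL-33) system were followed in skin regulatory T (Treg) cells and in hair follicle stem cells (HFSC) of mice. The members were the rows of both expression tables named Il1rl1, Il18r1, Il18rap, Il1r1, Il1r2, Il1rap, Il1rn, Il18, Il33 and Il1a, which are 10 of the 24537 gene symbols in each table. All 14 libraries came from FACS-sorted cells of depilated skin. Treg cells were taken 1 day after depilation, from wild-type animals (Treg GR WT, n = 3) and from Foxp3YFP-Cre GRfl/fl animals (Treg GR KO, n = 5), in which a Cre recombinase driven by the Foxp3 gene deletes the loxP-flanked glucocorticoid receptor (GR) gene. HFSC were gated as CD34+ITGA6high cells 4 days after depilation, from the same 2 genotypes (HFSC GR WT and HFSC GR KO, n = 3 each). The HFSC themselves were not the target of the Foxp3-driven deletion, and "GR KO" in their name is the genotype of the animal. Age, sex and littermate status of the animals, and whether each library came from a single animal, were not stated in the labels. The p-values therefore measure the spread between libraries, which may be technical.

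The signalling receptors of this family share an intracellular TIR domain and act through MYD88 and IRAK kinases on NF-kB. IL-33, a nuclear cytokine released by damaged epithelial and stromal cells, binds ST2 (gene Il1rl1), a receptor carried by many tissue Treg cells. IL-1 alpha and IL-1 beta bind IL1R1, and both ST2 and IL1R1 need the co-receptor IL1RAP. IL1R2 is a decoy that binds IL-1 without signalling, and the antagonist encoded by Il1rn occupies IL1R1. IL-18 binds IL18R1, whose signalling partner is IL18RAP.

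Of the members, 5 lie together on chromosome 1. With Il1rl2, the receptor for the IL-36 cytokines, they form a cluster of 6 receptor genes on the plus strand of mm10, from Il1r2 at chr1:40084768-40125226 through Il1r1 at chr1:40225080-40316177 and Il1rl2 at chr1:40324627-40365471 to Il1rl1 at chr1:40439629-40465414, Il18r1 and Il18rap at chr1:40515362-40551705. The cluster spanned 466.938 kb, and the Il18r1 row of the Treg table began 206 bases after the end of the Il1rl1 row. Il1rap lies at chr16:26581705-26717748, Il18 at chr9:50565368-50581837, Il33 at chr19:29925114-29960715 and Il1a on the minus strand at chr2:129299610-129309972. In 8 of the 10 members both tables used the same RefSeq transcript. The exceptions were Il18r1 (chr1:40465621-40491580 in the Treg table and chr1:40466006-40500854 in the HFSC table) and Il1rn (chr2:24345371-24351491 and chr2:24336860-24351491), so levels of these genes are not on the same footing in both tables.

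Promoter sequence is shown for 3 members that stood out by level or difference. They are the most abundant receptor in Treg cells (Il1rl1), the ligand with the largest difference in HFSC (Il33), and the ligand whose genotypes did not overlap in Treg cells (Il1a). Il1rn, the member called in Treg cells, is not shown, and its windows overlap its own annotated exons. RefSeq (GRCm38.p6) gave 17 windows of 250 bases ending before a start site, covering all 10 members. The windows below lie outside annotated genes. They are chr1:40429320-40429569 for Il1rl1 (plus strand, upstream of a start that lies 10059 bases before that of the counted row), chr19:29924863-29925112 for Il33 (plus strand) and chr2:129309973-129310222 for Il1a (minus strand). Capitals mark a GATA motif in Il1rl1 and an AP-1 motif in Il1a.
Il1rl1: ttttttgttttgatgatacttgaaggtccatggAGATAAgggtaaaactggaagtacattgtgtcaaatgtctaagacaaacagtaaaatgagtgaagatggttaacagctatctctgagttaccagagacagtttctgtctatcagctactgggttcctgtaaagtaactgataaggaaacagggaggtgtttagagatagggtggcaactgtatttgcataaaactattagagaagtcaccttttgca
Il33: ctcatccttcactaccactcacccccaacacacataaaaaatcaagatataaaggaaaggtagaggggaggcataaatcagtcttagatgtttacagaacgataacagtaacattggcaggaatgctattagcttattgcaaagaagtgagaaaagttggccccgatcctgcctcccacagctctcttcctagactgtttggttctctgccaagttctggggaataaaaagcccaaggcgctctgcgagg
Il1a: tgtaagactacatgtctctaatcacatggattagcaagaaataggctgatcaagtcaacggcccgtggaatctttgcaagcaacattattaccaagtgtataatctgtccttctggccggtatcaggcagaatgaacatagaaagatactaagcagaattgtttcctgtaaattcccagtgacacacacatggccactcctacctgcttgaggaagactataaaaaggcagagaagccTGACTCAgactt

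Each motif was searched on both strands. The single-arm glucocorticoid receptor motif TGTTCT occurred in 2 of the 17 windows (11.8%; before the internal start of Il1r1 and before Il18), and in 16.1% of 32851 RefSeq windows of the same length. The full palindrome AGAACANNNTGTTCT, which contains that motif, occurred in none of the 17 windows and in 3 of all windows. AP-1 motifs (TGANTCA) were found in 2 windows, of Il1rn and Il1a, against 6.75% of all windows. GATA motifs (AGATAA) were found in 2 windows, both of Il1rl1, against 9.99% of all windows. These counts describe letters in the windows, and binding was not measured.

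Values are TPM as deposited, that is, transcript levels scaled by transcript length and library size. Recovered tag totals ranged from 9167605 to 14461504 in Treg libraries and from 4503905 to 7989730 in HFSC libraries, where GR WT replicate 1 was the shallowest. A count of 3 tags, the limit that a count of 0 allows, corresponded to between 0.0522 TPM (Il1rl1) and 0.482 TPM (Il18) in Treg libraries and to between 0.117 TPM (Il1rl1) and 1.20 TPM (Il18) in HFSC libraries, for counting error only. The targeted gene, Nr3c1, had 211 ± 35.3 TPM (SD, n = 3) in Treg GR WT and 130 ± 27.3 TPM (n = 5) in Treg GR KO. The ranges overlapped (limma adjusted p = 0.0722). Each value covers the whole transcript of 6319 bases, so it does not measure loss of the loxP-flanked part alone. Foxp3 was at 137 to 281 TPM in the Treg libraries and Krt15 at 3562 to 7252 TPM in the HFSC libraries. Genotypes were compared within each table by limma on log2(TPM + 1) for genes averaging 1 TPM or more, with Benjamini-Hochberg adjustment over all genes tested and a threshold of 0.05. Fold changes are on that scale, GR KO minus GR WT, and understate the change of low genes.

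In Treg cells the family was dominated by 4 receptors. Ordered by the mean over all 8 libraries, they were Il1rl1 (258 TPM, range 202 to 327), Il1r2 (185 TPM, 142 to 248), Il18r1 (81.5 TPM, 71.6 to 91.3) and Il18rap (46.1 TPM, 38.8 to 55.99). The ranges of Il1rl1 and Il1r2 overlapped, whereas those of Il1r2, Il18r1 and Il18rap were separate. The next members were Il1rn (9.19 TPM, 1.73 to 30.6), Il1rap (7.93 TPM, 5.41 to 12.7), Il18 (3.71 TPM, 1.79 to 5.57) and Il1r1 (2.40 TPM, 0.999 to 6.45), whose ranges overlapped each with the next. The place of Il1rn held in GR WT only: its mean there was 19.2 TPM, above Il1rap (9.41 TPM) and Il18 (3.18 TPM), and in GR KO it was 3.16 TPM, below Il1rap (7.04 TPM) and Il18 (4.03 TPM). Il1a (0.585 TPM) and Il33 (0.157 TPM) were lowest.

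**Figure D1:**
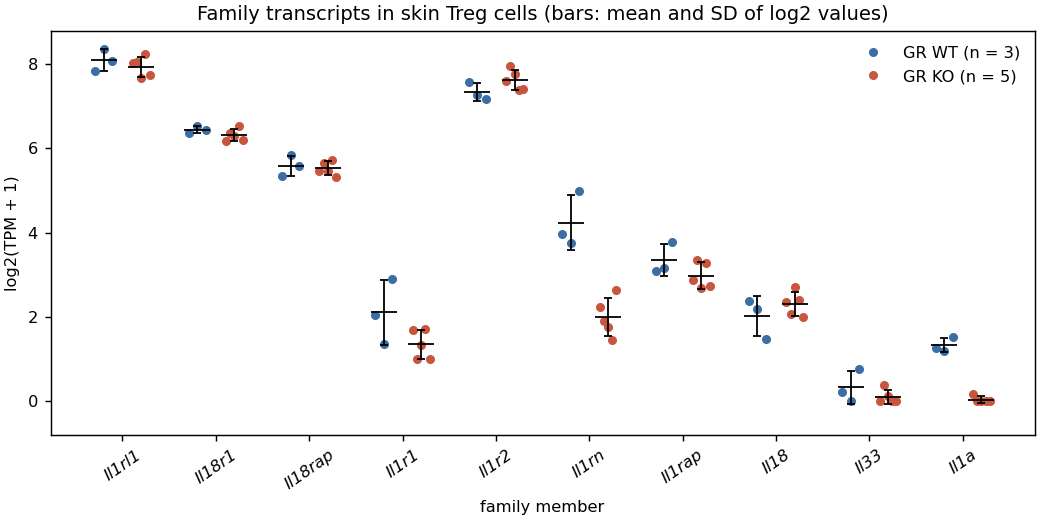
Each point is 1 Treg library (blue, GR WT, n = 3; red, GR KO, n = 5) and the vertical axis is log2(TPM + 1); black bars give the mean and SD of the log2 values for each of the 10 members. Il1rn and Il1a are the members whose genotypes do not overlap.

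Of the 8 members tested in Treg cells, 1 passed the threshold, Il1rn, which was lower in GR KO, and none was higher. Over all 11579 genes tested, 1.31% were called lower and 0.199% higher. The median log2 fold change of the 8 members was -0.14, beside -0.04 over all genes tested. The groups did not overlap for 1 of the 8, again Il1rn, where 8.52% of all genes tested had groups that did not overlap. Il33 and Il1a were below the filter and were not tested.

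Il1rl1, the gene of the IL-33 receptor ST2, was at 227, 327 and 270.4 TPM in the GR WT libraries and at 259, 263, 202, 302 and 212 TPM in the GR KO libraries. The highest value was in a GR WT library and the lowest in a GR KO library, and the groups overlapped. The means were 275 ± 50.4 TPM (SD, n = 3) and 247 ± 40.8 TPM (n = 5). The log2 fold change was -0.15 (SE 0.15, 95% interval -0.48 to 0.18; limma adjusted p = 0.708). It ran from -0.28 without GR WT replicate 1 to -0.02 without GR WT replicate 2. The table gives 1 value per gene, so the membrane and soluble forms of ST2 cannot be told apart.

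Mast cells and group 2 innate lymphoid cells also carry ST2. Of 10 mast cell and basophil genes, Mcpt4, Tpsb2, Fcer1a, Ms4a2 and Mcpt8 were at 0 in all 8 Treg libraries. The sum of the 10 was 8.52 to 10.8 TPM in GR WT and 4.17 to 6.43 TPM in GR KO. The sum of 8 genes of group 2 innate lymphoid cells was 86.3 to 112 TPM in GR WT and 102 to 140.3 TPM in GR KO, of which Il13 held 28.7 to 29.6 TPM and 36.1 to 54.2 TPM. Most of the list did not follow its sum: 5 of the 7 genes tested had negative fold changes, with a median of -0.29. None passed in limma, 3 had an unadjusted p under 0.05 (Il13 and Calca positive, Arg1 negative), and voom called 1. Beside these, voom called 253 of all 11579 genes tested. The part of those cells in the Il1rl1 values was not tested.

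Among 18 genes chosen for ST2-positive tissue Treg cells, all were tested and none passed in limma, while 4 had an unadjusted p under 0.05 and voom called none; over all genes tested, 1630 of 11579 had such a p. Their median log2 fold change was -0.06. The 4 were Penk, the proenkephalin gene (80.6 ± 5.66 TPM in GR WT and 57.3 ± 10.2 TPM in GR KO, log2 -0.50, limma adjusted p = 0.125), Dgat2, an enzyme of triglyceride synthesis (0.40, adjusted p = 0.192), Tigit, an inhibitory receptor (0.28, adjusted p = 0.321), and Gata3, a transcription factor that supports ST2 expression (-0.37, adjusted p = 0.352). Without GR KO replicate 3, Penk passed, with -0.60 and an adjusted p of 0.0220 (0.0220 to 0.379 over its alternatives).

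Il18r1, the ligand-binding chain of the IL-18 receptor, was at 81.4, 91.1 and 85.4 TPM in GR WT and at 71.6, 81.1, 77.5, 91.3 and 72.4 TPM in GR KO. GR KO replicate 4 was at the level of the highest GR WT library. The log2 fold change was -0.13 (SE 0.11, 95% interval -0.36 to 0.10; limma adjusted p = 0.6254). The annotated exons of Il1rl1 reach into the window before the Il18r1 start, but the counted rows of these genes lie 206 bases apart and share no bases. How reads between the rows were assigned was not given in the sources used here.

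Il18rap, the signalling chain, was at 39.8, 55.99 and 46.6 TPM in GR WT and at 43.3, 49.0, 43.0, 52.2 and 38.8 TPM in GR KO. The values were interleaved. The log2 fold change was -0.06 (95% interval -0.36 to 0.24; limma adjusted p = 0.888), and it turned to 0.06 without GR WT replicate 2, the highest library. Within a library, the ratio of Il18r1 to Il18rap ran from 1.63 to 2.05. The ligand Il18 was low, at 4.17, 3.56 and 1.79 TPM in GR WT and at 4.11, 3.21, 5.57, 4.23 and 3.004 TPM in GR KO, with overlapping groups (log2 0.29, 95% interval -0.29 to 0.88; limma adjusted p = 0.670). Without GR WT replicate 3, the lowest library, the value was 0.03.

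Transcripts of the IL-1 decoy outnumbered those of the signalling receptor in every Treg library. Il1r2, the decoy, was at 189, 153 and 142 TPM in GR WT and at 194, 248, 217, 167 and 170.4 TPM in GR KO. The 3 highest values were in GR KO, and the other GR KO libraries lay within the GR WT range. The means were 161 ± 24.4 TPM (n = 3) and 199 ± 33.7 TPM (n = 5), a log2 fold change of 0.30 (SE 0.14, 95% interval -0.02 to 0.61; limma adjusted p = 0.386). An antisense gene, Gm16894, is annotated over an early exon of Il1r2, and whether the counting used strand was not given in the sources used here.

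Il1r1, the signalling receptor, was at 3.15, 1.56 and 6.45 TPM in GR WT and at 2.24, 0.999, 1.52, 2.27 and 1.013 TPM in GR KO. The 2 highest values were in GR WT, but its replicate 2 lay inside the GR KO range. The log2 fold change was -0.75 (SE 0.36, 95% interval -1.54 to 0.03; limma adjusted p = 0.376), and it was -0.36 without GR WT replicate 3. The ratio of Il1r2 to Il1r1 was 60.0, 97.8 and 22.0 in GR WT and 86.7, 248, 143, 73.8 and 168 in GR KO, so the lowest ratio was in GR WT replicate 3.

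The shared co-receptor Il1rap was at 7.55, 7.96 and 12.7 TPM in GR WT and at 6.34, 9.20, 5.41, 8.67 and 5.59 TPM in GR KO. The groups overlapped (log2 -0.37, 95% interval -0.87 to 0.14; limma adjusted p = 0.517), and the value was -0.15 without GR WT replicate 3. Il1rl1 exceeded Il1rap by 21.2 to 41.1 times within a library. Of 4 other family receptors only Sigirr, an inhibitor of family signalling, was tested; it was at 22.2 to 29.0 TPM over the 8 libraries (log2 0.09; limma adjusted p = 0.805).

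**Figure D2:**
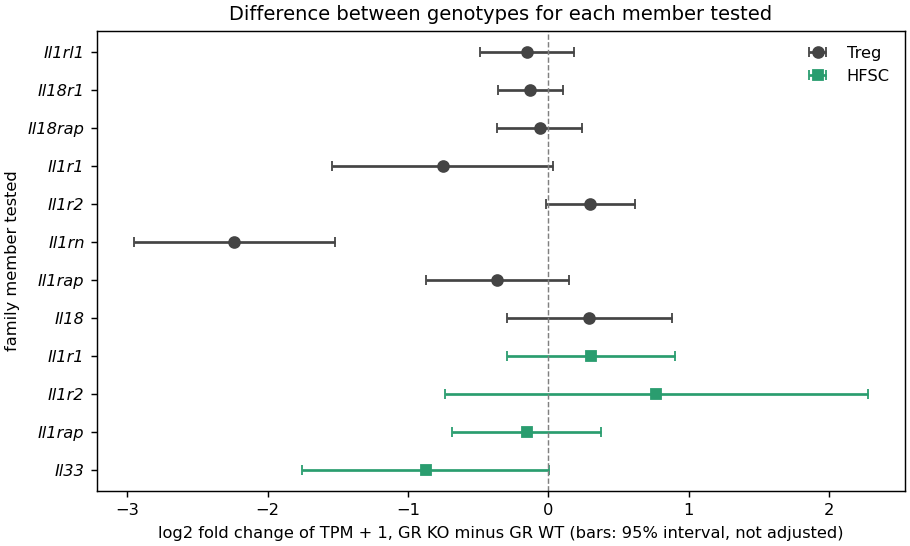
The horizontal axis is the limma log2 fold change of TPM + 1, GR KO minus GR WT, and the bars are its 95% interval, not adjusted for the number of genes. Circles are the 8 members tested in Treg cells and squares the 4 tested in HFSC; the interval of Il1rn in Treg cells lies farthest from 0.

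Il1rn, the receptor antagonist gene, was at 14.6, 12.6 and 30.6 TPM in Treg GR WT and at 3.68, 2.76, 2.39, 1.73 and 5.25 TPM in Treg GR KO. Every GR WT library was above every GR KO library, and GR WT replicate 3 was highest. Il1rn fell from 19.2 ± 9.88 TPM (SD, n = 3) to 3.16 ± 1.36 TPM (n = 5), or to 16.4% of the GR WT mean. On the log2 scale this was -2.24 (SE 0.32, 95% interval -2.95 to -1.52; limma adjusted p = 0.00576). In an exact permutation test of the difference, two-sided, p was 0.0179, the smallest that 56 assignments allow. Testing all genes without the filter on low values ended the call, with an adjusted p of 0.0934; over all alternatives the adjusted p ran from 0.00185 to 0.0934.

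Il1a, the gene of IL-1 alpha, was listed at 1.40, 1.30 and 1.86 TPM in Treg GR WT, at 0.124 TPM in GR KO replicate 1 and at 0 in the other 4 GR KO libraries. These values rested on 78 tags in the GR WT libraries together and 2 tags in the GR KO libraries together. The groups did not overlap (exact two-sided permutation p = 0.0179). Below the filter it had no place in the limma fit, and in the fit without the filter its log2 fold change was -1.29 (limma adjusted p = 0.00444). The SE there was 0.0796, with 4 GR KO libraries tied at 0, so this adjusted p is no independent support. Il33 was near 0 in Treg cells, at 0.164, 0 and 0.686 TPM in GR WT and at 0, 0.312, 0.09, 0 and 0 TPM in GR KO, or 21 and 8 tags.

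Il1b, the gene of IL-1 beta and not among the 10 members, was listed with the other family ligands. It was at 239.7, 155 and 316 TPM in GR WT and at 64.8, 46.2, 26.1, 48.3 and 65.2 TPM in GR KO. All GR WT libraries were above all GR KO libraries. It fell from 237 ± 80.4 TPM (n = 3) to 50.1 ± 16.1 TPM (n = 5), with a log2 fold change of -2.23 (SE 0.29; limma adjusted p = 0.00333, and 0.0906 without the filter). Of the 7 other ligands and antagonists, 2 were tested; the second, Il18bp, which encodes the IL-18 binding protein, was at 3.54 ± 0.393 TPM and 2.16 ± 0.713 TPM (log2 -0.55; limma adjusted p = 0.370).

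Summed marker transcripts of some other cell types in the Treg libraries were lower in GR KO, as Il1rn, Il1a and Il1b were, and the sums of others were not. The sum of 12 macrophage and monocyte genes without Ccr2 was 217 to 388 TPM in GR WT and 66.1 to 181 TPM in GR KO. With Ccr2, which was at 642 TPM or more in every Treg library, the sum of all 13 overlapped, at 868 to 1086 TPM and 754 to 1112 TPM. Of the 13, all tested, 12 had negative fold changes and Ccr2, the gene left out, the 1 positive one. Those that passed as lower were 6 (Lyz2, Cd14, Mrc1, Fcgr1, Ms4a7 and Itgam).

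The sum of 7 neutrophil genes without Mmp9 was 85.8 to 342 TPM in GR WT and 0.433 to 23.0 TPM in GR KO, and with Mmp9 103 to 357 TPM and 19.9 to 47.4 TPM. Of the 5 tested, 4 had negative fold changes, of which S100a8, S100a9 and Clec4d passed as lower. Mmp9, the gene left out, had the 1 positive fold change. The sum of 10 basal keratinocyte genes was 403 to 684 TPM and 21.5 to 116 TPM, with 8 of 9 tested passing as lower. The sum of 8 CD8 T and NK cell genes leaned the other way, at 136 to 179 TPM in GR WT and 175 to 265 TPM in GR KO. These sums overlapped. All 5 tested genes were positive, but none passed in limma or voom and none had an unadjusted p under 0.05. The sums of 8 dendritic and Langerhans cell genes (41.2 to 53.9 TPM and 33.9 to 52.4 TPM) and of 8 fibroblast genes (756 to 1026 TPM and 772 to 930.4 TPM) overlapped. No gene was left out of the fibroblast sum, as Ccr2 and Mmp9 were from theirs. Its overlap therefore does not show that fibroblast transcripts were unchanged. Most fibroblast genes did not follow their sum: all 8 were tested, 7 had negative fold changes and 1 a positive one. The median log2 fold change of the 8 was below the -0.04 over all genes tested. None of these 8 passed in limma, 5 had an unadjusted p under 0.05 and voom called 1. Over all 11579 genes tested, 1630 had such a p and voom called 253. The part of such cells in the Il1rn, Il1a and Il1b values was not tested. In these bulk libraries fewer cells of a type and less RNA per cell cannot be told apart.

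**Figure D3:**
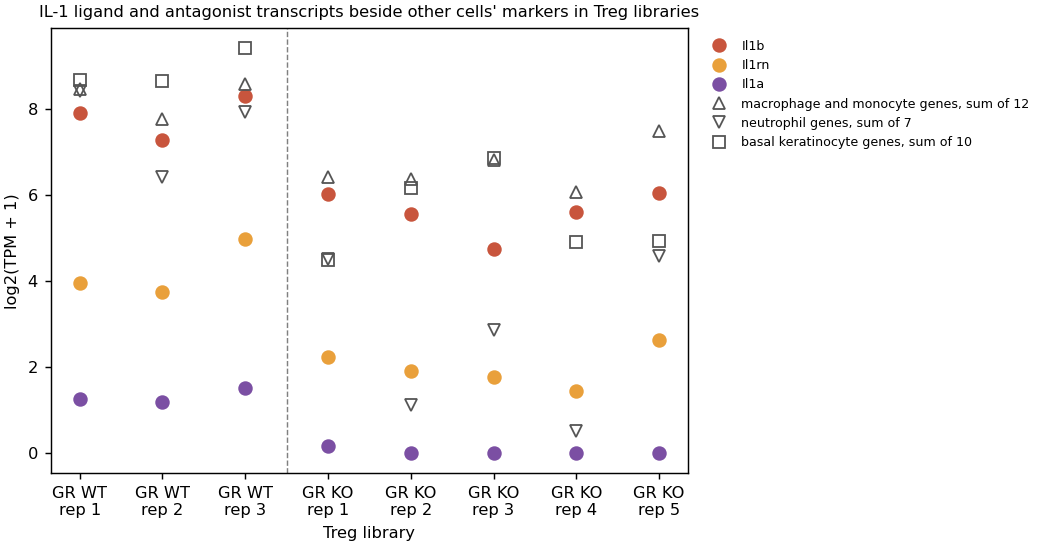
Each column is 1 Treg library (3 GR WT, then 5 GR KO) and the vertical axis is log2(TPM + 1). Filled circles are Il1b, Il1rn and Il1a, and open symbols are summed markers of macrophages and monocytes without Ccr2, of neutrophils without Mmp9, and of basal keratinocytes; each of the 6 series is higher in all 3 GR WT libraries than in any GR KO library.

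The machinery around the receptors in Treg cells was measured from lists chosen for the pathway, with earlier results of these data known. Their shares are therefore description only. Of 20 genes of receptor-proximal signalling, 17 were tested and none passed in limma, with 15 of the 17 fold changes negative, beside 55.8% over all genes tested. The median was -0.11, 2 had an unadjusted p under 0.05 and voom called none. The smallest p-values belonged to Map3k8, a kinase upstream of ERK (68.9 ± 6.24 TPM and 48.7 ± 9.80 TPM, log2 -0.51, limma adjusted p = 0.176), and Peli1, a ubiquitin ligase of IRAK complexes (-0.32, adjusted p = 0.243). The adaptor genes Traf6 (-0.25, adjusted p = 0.471) and Myd88 (-0.18, adjusted p = 0.515) came next.

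Of 19 genes of the inflammasome and ligand processing, 10 were tested in Treg cells and none passed in limma, with 1 unadjusted p under 0.05. That gene was Nlrp3, an inflammasome sensor, at 4.43, 2.38 and 4.49 TPM in GR WT and at 0.606, 0.131, 1.28, 0.418 and 1.26 TPM in GR KO. The groups did not overlap (log2 -1.47; limma adjusted p = 0.0565), and voom called it with an adjusted p of 0.0194 (0.0194 to 0.221 over its alternatives). Nlrp3 passed the filter only through GR WT (mean 3.77 TPM, against 0.739 TPM in GR KO), so this test is no independent support. The macrophage sum without Ccr2 was lower in the same libraries, and its part was not tested.

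Of 20 genes known to respond to IL-1, 16 were tested in Treg cells, 2 passed as lower and none as higher. Over all genes tested, 1.31% passed as lower and 0.199% as higher. The median log2 fold change was -0.24, beside -0.04 over all genes tested, and 13 of the 16 were negative, beside 55.8%. Of the 16, 7 had an unadjusted p under 0.05, beside 1630 of all 11579 genes tested. The groups did not overlap for 5 of the 16, beside 8.52% of all genes tested. This list was chosen with earlier results of these data known, so these shares are description and no independent support. Cxcl2, a neutrophil-attracting chemokine, fell from 121 ± 7.30 TPM to 26.6 ± 9.11 TPM (log2 -2.21; limma adjusted p = 0.00214, and 0.0547 without the filter). Ptgs2, the gene of cyclooxygenase-2, fell from 19.4 ± 8.62 TPM to 2.5 ± 1.82 TPM (log2 -2.56; limma adjusted p = 0.00832). Its call was lost without the filter (adjusted p = 0.124), without GR WT replicate 1 (0.0507) and without GR WT replicate 3 (0.0543). The macrophage sum without Ccr2 and the neutrophil sums were higher in the same 3 libraries as these genes, and the macrophage sum with Ccr2 was not.

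In HFSC the family had another make-up. Of the 10 members, 4 passed the filter: Il33, Il1rap, Il1r1 and Il1r2, and the first 3 were present in all 6 libraries. Ordered by the mean over the 6 libraries they were Il33 (11.9 TPM, range 4.48 to 21.3), Il1rap (8.23 TPM, 6.03 to 10.6), Il1r1 (7.47 TPM, 4.07 to 8.54) and Il1r2 (1.66 TPM, 0 to 5.69). The ranges of the first 3 overlapped. None of the 4 passed the threshold in limma, none had an unadjusted p under 0.05, and voom called none; over all 12493 genes tested, 0.144% were called higher and 0.032% lower. No member tested had groups that did not overlap, where 23.5% of all genes tested did. The members' median log2 fold change was 0.07, beside -0.02 over all genes tested.

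Il33, the alarmin, was at 8.98, 21.3 and 16.4 TPM in HFSC GR WT and at 4.48, 7.49 and 12.5 TPM in HFSC GR KO. The 2 highest values were in GR WT and the 2 lowest in GR KO, and GR KO replicate 3 lay above GR WT replicate 1. The means were 15.6 ± 6.22 TPM (SD, n = 3) and 8.17 ± 4.08 TPM (n = 3). The log2 fold change was -0.87 (SE 0.38, 95% interval -1.76 to 0.01; unadjusted p = 0.0514, limma adjusted p = 0.305). An exact two-sided permutation test gave p = 0.2, in a design that cannot go below 0.1. Its adjusted p was 0.0587 with sample weights and 0.760 without the filter, which are the ends of its range over the alternatives.

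Markers of other cells that make IL-33 or surround the follicle, and of basal keratinocytes and HFSC, were set beside that difference. The sum of 8 fibroblast genes was 8.53 to 21.2 TPM in HFSC GR WT and 11.3 to 16.9 TPM in HFSC GR KO, and that of 8 endothelial genes was 7.15 to 13.5 TPM and 3.22 to 9.60 TPM. The sum of 8 sebocyte genes was 2775 to 4324 TPM in GR WT and 6044 to 7667 TPM in GR KO. None of the 8 sebocyte genes passed in limma, 7 had an unadjusted p under 0.05, and voom called 5. Over all 12493 genes tested in HFSC, 2074 had such a p and voom called 483. The sum of 10 basal keratinocyte genes was 24079 to 28857 TPM in GR WT and 18304 to 21741 TPM in GR KO, lower in all 3 GR KO libraries like the mean of Il33. Of these 10, 8 had negative fold changes, none passed in limma, 2 had an unadjusted p under 0.05 and voom called 2. The basal keratinocyte list shares Krt15 with the HFSC list, so its sum is not a measure of other cells. The sum of 8 HFSC genes was 5482.5 to 8244 TPM in GR WT and 4392 to 5681 TPM in GR KO, and these ranges overlapped. Of those 8, 5 had negative fold changes and 3 positive ones. The part of the cell make-up in the Il33 values was not tested.

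Il1r1 was at 4.07, 7.85 and 8.29 TPM in HFSC GR WT and at 7.61, 8.47 and 8.54 TPM in HFSC GR KO. GR WT replicate 1, the shallowest library, was lowest, and the other 5 lay close together (log2 0.30, 95% interval -0.30 to 0.90; limma adjusted p = 0.605). Without that library the value was 0.02. Il1rap was at 9.41, 7.52 and 8.98 TPM and at 10.6, 6.03 and 6.89 TPM, with overlapping groups (log2 -0.15, 95% interval -0.68 to 0.37; limma adjusted p = 0.776). The ratio of Il1rap to Il1r1 was 0.712 to 2.31 over the 6 libraries.

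The decoy Il1r2 was at 0, 2.29 and 0.340 TPM in HFSC GR WT and at 1.02, 0.616 and 5.69 TPM in HFSC GR KO, on 14 and 44 tags. These low values overlapped (log2 0.77, 95% interval -0.74 to 2.27, limma adjusted p = 0.597). Il1r2 passed the filter only through GR KO (mean 2.44 TPM, against 0.876 TPM in GR WT), so this test is no independent support. Of the 44 GR KO tags, 34 were in replicate 3. Il1rn was at 0.369 to 1.12 TPM in GR WT and 0.501 to 1.27 TPM in GR KO, under the filter. Il18 was at 0, 0.592 and 0 TPM in GR WT and at 0.264, 2.63 and 0 TPM in GR KO, where 1 library held most of the 12 GR KO tags.

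Of the 4 receptors that led in Treg cells, Il1rl1 and Il18rap were at the detection limit in HFSC. Il1rl1 had 2 tags in GR WT and 2 in GR KO, and reached 0.0960 TPM at most. Il18rap was at 0 in all 6 libraries. Il18r1 was low but above the limit of 3 tags in some libraries, reaching 0.694 TPM in GR KO replicate 2. Il1a had 1 tag, in GR WT replicate 3. None of these members was tested in HFSC.

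**Figure D4:**
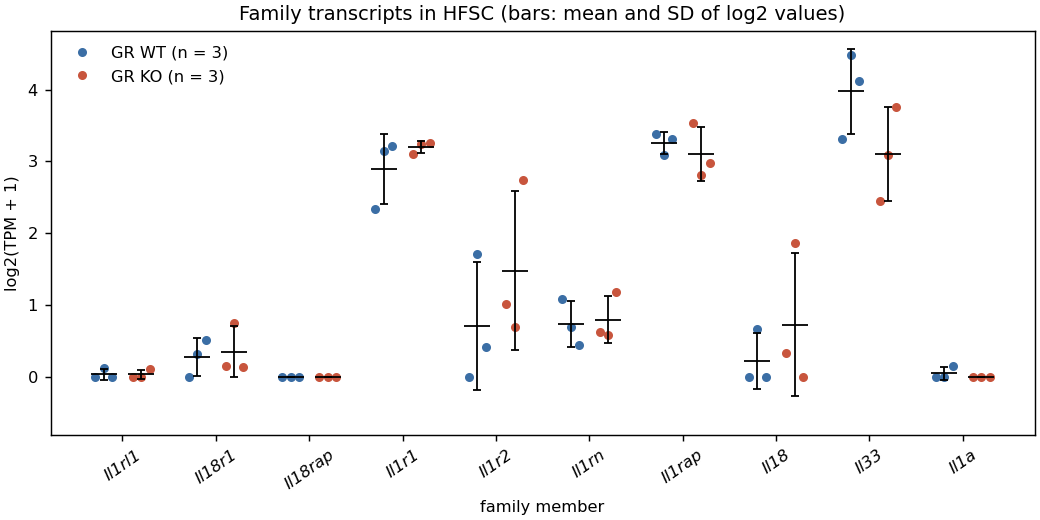
Each point is 1 HFSC library (blue, GR WT, n = 3; red, GR KO, n = 3) and the vertical axis is log2(TPM + 1); black bars give the mean and SD of the log2 values for each of the 10 members. The genotypes overlap for every member, and Il18rap is at 0 throughout.

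The 2 cell types used different genes of the chromosome 1 cluster. In Treg GR WT the mean levels ran from 161 TPM (Il1r2) through 3.72 TPM (Il1r1) and 1.70 TPM (Il1rl2) to 275 TPM (Il1rl1), 86.0 TPM (Il18r1) and 47.4 TPM (Il18rap). In HFSC GR WT the same genes were at 0.876, 6.74, 23.0, 0.0320, 0.227 and 0 TPM. Il1rl2 was thus the highest of the cluster in HFSC, at 17.1 to 29.8 TPM over the 6 libraries (log2 -0.09; limma adjusted p = 0.866). The tables hold different cell types at different days, so no test was made between them.

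Genes that flank the cluster were Map4k4 on the side of Il1r2 and Slc9a4, Slc9a2, Mfsd9 and Tmem182 on the side of Il18rap. Map4k4, a kinase, was at 47.1 TPM in Treg GR WT and 79.0 TPM in HFSC GR WT. In Treg GR WT the other 4 were at 0.155, 0, 0.187 and 0.118 TPM, and in HFSC GR WT at 0, 1.008, 17.9 and 1.19 TPM. Of the 11 genes of the locus, 6 were tested in each table. None passed in limma or voom in either table, and none had an unadjusted p under 0.05.

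**Figure D5:**
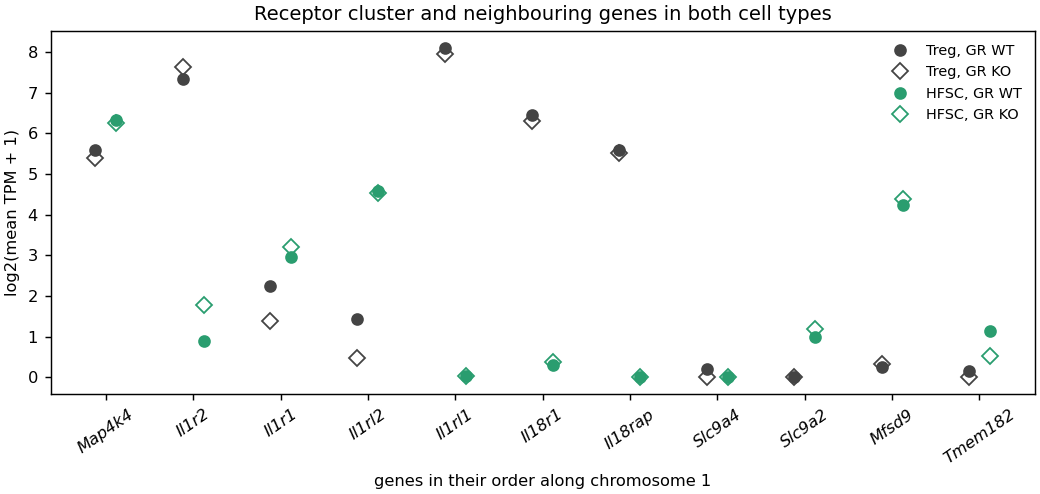
The horizontal axis gives 11 genes in their order along chromosome 1 and the vertical axis log2 of the group's mean TPM + 1, with grey for Treg cells, green for HFSC, filled symbols for GR WT and open ones for GR KO. Il1r2, Il1rl1, Il18r1 and Il18rap are high in Treg cells, and Il1rl2 is the highest receptor of the cluster in HFSC.

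Outside the members, Sigirr had the smallest p of the family receptors in HFSC. It was at 4.51, 2.18 and 2.75 TPM in HFSC GR WT and at 8.35, 7.48 and 9.36 TPM in HFSC GR KO. The groups did not overlap, and the means were 3.15 ± 1.22 TPM and 8.39 ± 0.942 TPM (log2 1.21, 95% interval 0.62 to 1.81; limma adjusted p = 0.0898). It was called with sample weights (adjusted p = 0.0162) and by voom (0.0388), with 0.0162 to 0.327 over its alternatives. The sebocyte sum was higher in the same 3 libraries, and its part was not tested.

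Among 13 tested genes known to respond to IL-1, none passed in HFSC in limma, 3 had an unadjusted p under 0.05 and voom called 1, against 20 genes listed. Ptgs2 was at 3.78, 7.43 and 8.56 TPM in GR WT and at 21.1, 41.5 and 12.8 TPM in GR KO, without overlap (log2 1.69; limma adjusted p = 0.117, 0.0450 with sample weights, 0.0334 with voom, and up to 0.474 over its alternatives). Zc3h12a, an RNase gene that limits inflammatory transcripts (log2 0.65, limma adjusted p = 0.158), and Nfkbiz, a nuclear protein of the IkB family (0.30, adjusted p = 0.186), were the others. The ligands themselves were scarce: Il1b was at 0 in 5 of the 6 libraries and at 0.307 TPM in GR KO replicate 2.

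Of 8 tested inflammasome and processing genes in HFSC, none passed in limma or voom, 1 had an unadjusted p under 0.05, and 7 fold changes were negative. The 1 was Casp1, the protease that matures IL-1 beta and IL-18, at 19.2, 21.7 and 24.3 TPM in GR WT and at 16.7, 13.7 and 13.97 TPM in GR KO. The groups did not overlap (log2 -0.52; limma adjusted p = 0.154, and 0.0409 with sample weights, the lowest of its alternatives, which reached 0.422). Pycard, the adaptor that links sensors to Casp1, came next (log2 -0.25; limma adjusted p = 0.323). Of 19 tested genes of receptor-proximal signalling, none passed in limma or voom and 2 had an unadjusted p under 0.05, Ecsit (0.33, adjusted p = 0.232) and Myd88 (0.30, adjusted p = 0.276), with 15 of the 19 fold changes positive. Over all genes tested in HFSC, 5901 of 12493 fold changes were positive and 2074 had an unadjusted p under 0.05.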

How the data were processed

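The tables hold TPM values that the authors made from RNA-seq of 8 Treg and 6 HFSC libraries (TruSeq Stranded mRNA kit, per the labels' protocols); FastQC, Trim Galore, STAR, HOMER and mm10 are named in the submitters' processing notes, and their versions and settings were not given in the sources used here. Each row is 1 RefSeq transcript per gene symbol. Low TPM values were whole multiples of 1 tag in 100% of cases, within 0.1 tag, which gave the tag totals.

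From the deposited TPM, limma 3.58.1 (R 4.3.3) was fitted per table to log2(TPM + 1) with a trended prior, genes averaging 1 TPM or more, and Benjamini-Hochberg adjustment at 0.05; single genes had exact permutation tests of the absolute difference in means (scipy 1.17.1). The script was tested on simulated data. No replicate block was used, since the numbers did not pair the libraries.

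The alternatives were other pseudocounts, filters, scalings and priors, sample weights, a replicate block, leaving out each library, and voom on the recovered tags, which was added after seeing the data. The members and the gene lists were chosen with earlier results of these data known. The text names all members, each list's genes past the threshold (otherwise up to 4 with the smallest p), and all genes of the chromosome 1 locus; Il18bp in Treg cells was named after its values were seen. The Il36 genes were matched under their older symbols, and 2 listed genes had no row. Marker sums without Ccr2 and without Mmp9 were formed after the levels of these genes were seen.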

Additional observations from a re-analysis of the deposited data

Results flagged for a closer look

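A single value stood apart from the rest of its group by Dixon's 95% criterion. The check covered 11 genes (the 10 members and Il1b) in the 5 Treg GR KO libraries, the single group large enough for that criterion. Chance marks about 1 in 20 where values are not tied. Il1a in Treg GR KO replicate 1 was at 0.124 TPM, on 2 tags, while the other 4 Treg GR KO libraries were at 0. With those 4 tied, any value above 0 meets the criterion. The limit of 3 tags was up to 0.210 TPM for Il1a in the Treg libraries, and is higher if tags are mates of read pairs.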

How the results depend on the processing

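Over 18 alternatives, Il1rn in Treg cells kept its negative sign, from -2.59 to -1.51, and its call in all but the fit without the low-value filter (adjusted p = 0.0934), where its unadjusted p also rose, from 2.53e-05 to 0.000628, and its SE from 0.325 to 0.371. That fit also ended the calls of Il1b (0.0906), Cxcl2 (0.0547) and Ptgs2 (0.124), while Il1a, absent from the other fits, passed in it. Most GR KO libraries of Il1a were tied at 0, so that pass is no independent support. Leaving out single libraries, Il18rap in Treg cells ran from -0.18 to 0.063, the latter without GR WT replicate 2. Nlrp3 passed with a pseudocount of 5, a robust prior and voom. The 175 genes called in Treg cells became 72 without the filter and 84 to 186 when a library was left out (107 without GR WT replicate 1, 84 without GR WT replicate 3). The 22 genes called in HFSC became 3 without the filter, 48 with a mean of at least 5 TPM, 69 with median ratio scaling, 58 with quantile scaling, 51 with a robust prior, 584 with sample weights, 483 with voom, and 0 to 5 when any library was left out. The split of 18 higher and 4 lower became 314 and 270 with sample weights and 240 and 243 with voom. No HFSC member passed in any of these. With a replicate block, 111 genes were called in Treg cells and 66 in HFSC, and no member's call changed; correlations of same-numbered libraries were 0.170, 0.0873 and -0.117 in Treg cells and 0.0156, 0.0619 and -0.0420 in HFSC, so the numbers were not taken as a pairing. The causes of these changes were not tested. Depth limits Il1a and Il33 in Treg cells and Il1r2, Il1rn, Il18 and Il1rl1 in HFSC.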
